A study of Homo sapiens with 40 samples.

Results

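The comparison described here is that of RNA captured next to an ER membrane peroxidase with the RNA it was captured from, in HEK293T cells, a human embryonic kidney line. Its members are 8 of the 40 libraries of the series: 4 of RNA bound to streptavidin (enriched) and the 4 inputs with the same replicate numbers, chosen by their names as the ERM s6G libraries. The cells expressed the engineered peroxidase APEX2 as the ERM construct (endoplasmic reticulum membrane). All received 100 µM 6-thioguanosine (s6G), a guanosine analogue that enters RNA made while it is present, for 5 h. Biotin-phenol (0.5 mM) was present in the final 30 min, and a 1 min pulse of hydrogen peroxide (1 mM) started the labelling. Enriched libraries came from 6.5 µg of RNA and 15 PCR cycles, inputs from 300 ng and 11 cycles, and both were selected for poly(A). The cytosolic construct (NES), with 2 enriched and 2 input libraries under the same s6G labelling, served for 1 comparison. The series design gives the replicates as biological, all from 1 cell line. For ERM it gives no arm without s6G or without biotin-phenol, so unlabelled capture could be set beside these values only from the MITO (mitochondrial matrix) and LMNB1 (nuclear lamina) constructs. The treatment field of the 4 enriched ERM libraries names s4U, whereas s6G is named in their titles and in the design text.

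APEX2 turns biotin-phenol into a radical that lives briefly and marks molecules within a short distance. At the ER membrane, ribosomes dock on the SEC61 channel while they make secreted and membrane proteins, so that mRNAs for these proteins are held at the ER surface during translation. The oligosaccharyl transferase beside the channel attaches sugars, chaperones in the lumen fold the product, and the unfolded protein response adjusts the supply of those chaperones through the sensors IRE1, PERK and ATF6.

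ERM libraries held 5342584 to 14496768 counts, and replicates 1 and 2 (up to 6664875) were shallower than replicates 3 and 4 (from 12382757). ATF3, a stress gene, stood at 935 to 1034 CPM (the share of all counts, unscaled) in the enriched ERM libraries, against 280 to 337 in enriched MITO s6G and 49.5 to 85.1 in enriched MITO s4U libraries. SEC61B, a subunit of the SEC61 channel, stood at 1091 to 3452 in all ERM libraries and at 57.1 to 235 in the other 32, and ERM inputs exceeded NES inputs by 3.32 ± 0.19 on the log2 scale (SE; edgeR adjusted p = 1.12e-06). The labels do not give the targeting sequence of ERM, and SEC61B reads cannot be assigned to the endogenous gene or to a construct. Of 13 genes that mark the HEK293 line, 12 reached 1 CPM in an ERM input and PAX8 had no count. Of 17 markers of other cell types, 14 stayed under that level in every ERM input (PTPRC, CD3E and ALB among them), and the list summed to 24.7 to 35.3 in inputs and 9.0 to 12.1 in enriched libraries, with COL1A1 at 18.01 to 27.46 and 3.60 to 7.11 of these. In bulk RNA, fewer cells of a type and less RNA per cell cannot be told apart.

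Capture changed the composition of the RNA broadly. Of 14772 genes tested with edgeR over the 4 pairs, 5257 were higher in the enriched libraries and 4734 lower at an adjusted p of 0.05. This is 67.6% of the genes tested, 35.6% higher and 32.0% lower, so that a count of called genes in a list has to be read against a large background. The median log2 fold change of all genes was 0.07, with a lower decile of -1.33 and an upper decile of 1.27. Scaling by total counts in place of TMM moved that median to 0.42 and gave 6964 higher and 3336 lower genes. Directions below are those of the TMM fit, and levels are CPM after TMM scaling over the ERM and NES libraries (normalised CPM). These are relative values within a library and say nothing of the absolute amount of RNA recovered. At the cytosolic construct NES, 4819 genes were higher and 4519 lower of 15619 tested. Over the 14724 genes tested in both, the log2 fold changes at ERM and NES correlated at 0.872 (Pearson). A change against input is therefore not by itself particular to the ER membrane.

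Among genes of good level (a mean log2 CPM of at least 5), the largest drops were in RNAs from mitochondrial DNA. All 13 mitochondrial mRNAs, which encode respiratory chain subunits and are made and translated inside the organelle, were lower, with a median log2 fold change of -2.67. MT-CO1, a subunit of cytochrome c oxidase, stood at 16170, 17490, 20080 and 21720 normalised CPM in inputs 1 to 4 and at 2127, 2518, 2137 and 2312 in the enriched libraries. The enriched libraries were close to each other and far below every input, a change of -3.08 ± 0.10 (SE, n = 4 pairs; edgeR adjusted p = 1.1e-10). MT-ND5 and MT-ND6, both complex I subunits, fell least. MT-ND5 went from 4178 to 5087 in inputs to 2172 to 3810 in enriched libraries, a change of -0.76 ± 0.18 (edgeR adjusted p = 0.00978) that missed the threshold without replicate 2 (adjusted p = 0.0632) or with total counts (0.0723), and MT-ND6 changed by -1.07 ± 0.26 (edgeR adjusted p = 0.0185). The other 11 changed by -3.08 to -1.98. MT-RNR2, the large mitochondrial rRNA, changed by -2.99, and MTND2P28, a nuclear pseudogene copy of MT-ND2 that can share its reads, by -2.79. The 37 mitochondrial-DNA genes together made up 7.47% ± 0.48 of all counts in inputs and 1.78% ± 0.26 in enriched libraries (SD, n = 4), a drop in each of the 4 pairs (exact permutation within pairs, two-sided p = 0.13, the smallest that 4 pairs allow). The NES inputs held 6.52% ± 0.39 and the enriched NES libraries 1.82% ± 0.03 (SD, n = 2). In the unlabelled MITO and LMNB1 libraries the 13 mRNAs had medians of 0.18 and 0.49.

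mRNAs of the translation and energy machinery of the cytosol fell as groups. All 77 cytosolic ribosomal protein genes tested were lower, with a median of -1.71. RPL39, a small protein of the ribosome's exit tunnel, went from 948, 1050, 1411 and 1538 normalised CPM in the inputs to 204, 314, 265 and 253, a change of -2.28 ± 0.13 (edgeR adjusted p = 7.46e-08), with no overlap between groups. RPLP1 (-2.18) fell to a similar extent, although many pseudogenes resemble ribosomal protein genes and the way their shared reads were counted is not given in the sources used here. Among translation factors 22 of 30 fell and 4 rose, led by the poly(A)-binding protein gene PABPC1 (-2.37). Of 17 glycolytic genes 16 fell, with a median of -1.51. GAPDH, which oxidises glyceraldehyde 3-phosphate, dropped from 1920 to 3096 in inputs to 453 to 734 in enriched libraries (-2.12 ± 0.07), and ALDOA, an aldolase, changed by -2.10. HK2, an inducible hexokinase, was the 1 member higher (0.99 ± 0.08). Nuclear genes of the respiratory chain fell in 67 of 73 cases, with a median of -1.47, among them NDUFB4 (-2.42), ATP5MC1 (-2.17) and ATP5MC2 (-2.13). UQCRFS1, the Rieske protein of complex III, was the 1 member higher (0.40 ± 0.09). Aminoacyl-tRNA synthetases (16 of 20 lower, median -0.88), proteasome subunits (24 of 32 lower, median -0.79), cytosolic chaperones (18 of 22 lower, median -0.79) and actins, tubulins and their partners (15 of 20 lower, median -1.09) also stood below the median of all genes. In the unlabelled MITO and LMNB1 libraries the ribosomal protein list had medians of 0.42 and 0.70 and glycolysis -0.52 and -0.32. At NES the ribosomal protein list had a median of -1.28 and glycolysis -1.44.

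**Figure D1:**
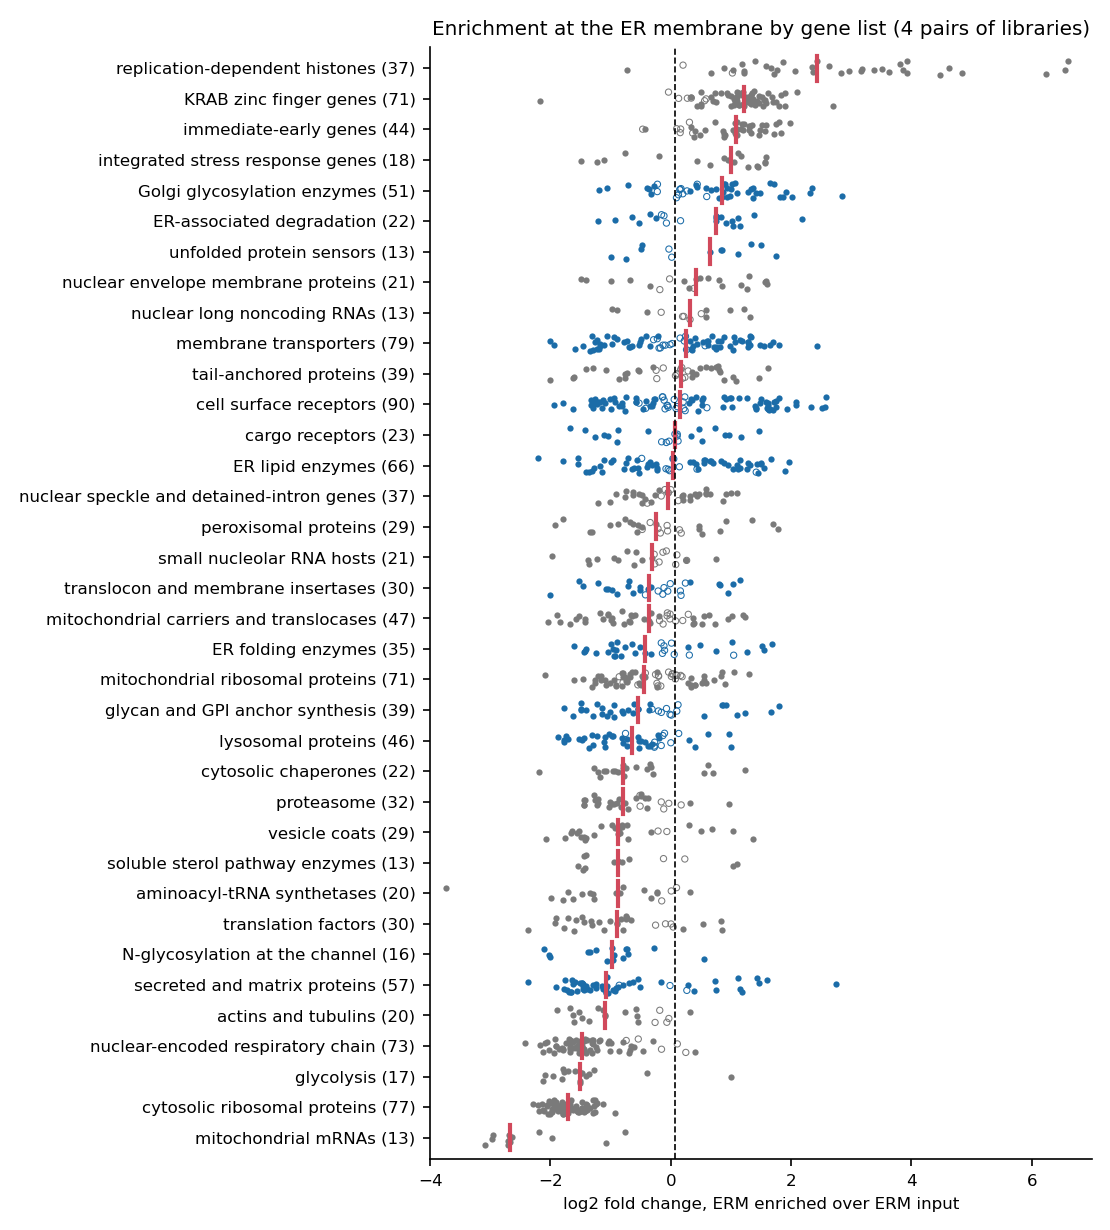
Log2 fold change of enriched over input ERM libraries (horizontal axis) for the tested members of 36 gene lists, whose number is in brackets. Filled points passed the edgeR threshold, open points did not, red bars are list medians and the dashed line is the median of all genes in the plotted table. Lists of the secretory pathway (blue) spread to both sides, from 2.84 for a Golgi enzyme to -2.37 for the secreted TIMP1, while mitochondrial mRNAs lie at the bottom and histone genes at the top.

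The list with the highest median was that of histone genes. Of 37 replication-dependent histone genes tested, 34 were higher and 1 lower, with a median of 2.43. At NES the median of this list was 2.16. H1-4, a linker histone gene, stood at 4.8, 2.7, 2.5 and 4.4 normalised CPM in inputs 1 to 4 and at 422, 298, 306 and 359 in the enriched libraries, a change of 6.56 ± 0.12 (edgeR adjusted p = 3.34e-13). Every enriched library was far above every input. H1-2 (2.43) and HIST1H3B, a histone H3 gene (3.35), were among the 10 highest genes of good level too. H4C2 and H2AC12 were near 0 in inputs (0.0 to 0.5 and 0.0 to 1.1 normalised CPM) and stood at 9.1 to 25.0 and 10.4 to 24.5 in enriched libraries. Most of these mRNAs end in a stem-loop and carry no poly(A) tail. Unlabelled capture also raised the list, with medians of 2.06 in the MITO libraries, where the enriched libraries held 123341 and 842177 counts, and 0.89 in the LMNB1 libraries, and the part of this in the ERM values was not tested.

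Messages of regulators with short-lived RNA rose as well. Of 44 immediate-early genes, which cells switch on within minutes of a stimulus, 37 rose and 1, EGR1, fell, with a median of 1.09. JUN, a subunit of the AP-1 transcription factor, went from 1328, 1265, 1036 and 976 normalised CPM to 3828, 3725, 3877 and 3959, so that the groups lay far apart (1.72 ± 0.09, edgeR adjusted p = 1.92e-09). IER5 rose by 1.80 ± 0.18 and MYC by 1.07 ± 0.08. JUND, another AP-1 subunit, changed by 1.82 ± 0.48, but its inputs split with depth into 203 and 224 against 58.7 and 63.6, and its adjusted p of 0.0408 rose to 0.0572 to 0.126 when any 1 replicate was left out. KRAB zinc finger genes, a large family of transcriptional repressors, rose in 64 of 71 cases with 1 lower and a median of 1.22, led by ZNF460 (2.70), ZNF484 (1.90) and ZNF468 (1.89). In the unlabelled MITO and LMNB1 libraries the medians were -0.30 and -0.18 for immediate-early genes and -0.01 and -0.20 for KRAB genes. At NES the medians were 1.90 and 1.56.

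The integrated stress response list counted 13 members higher and 5 lower, with a median of 1.00. XBP1, the transcription factor that IRE1 activates by splicing, rose from 194 to 212 normalised CPM to 543, 601, 678 and 698 (1.58 ± 0.08, edgeR adjusted p = 9.79e-10). DDIT4 (1.57), an inhibitor of mTOR signalling, and CEBPG (1.57) rose alike, and ATF3 went from 344 to 354 to 802 to 944 (1.302 ± 0.073). The 5 lower members all encode metabolic enzymes. ASNS, which makes asparagine, changed by -1.11 ± 0.08 and PHGDH, the first enzyme of serine synthesis, by -1.23 ± 0.07. PSAT1, the next enzyme of serine synthesis, changed by -0.76, and the mitochondrial folate enzymes MTHFD2 and ALDH1L2 by -0.19 and -1.49. XBP1, the 5 enzyme genes, JUN and MYC were picked or described after their values were seen, as were the genes named below beyond the leading members of each list.

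**Figure D2:**
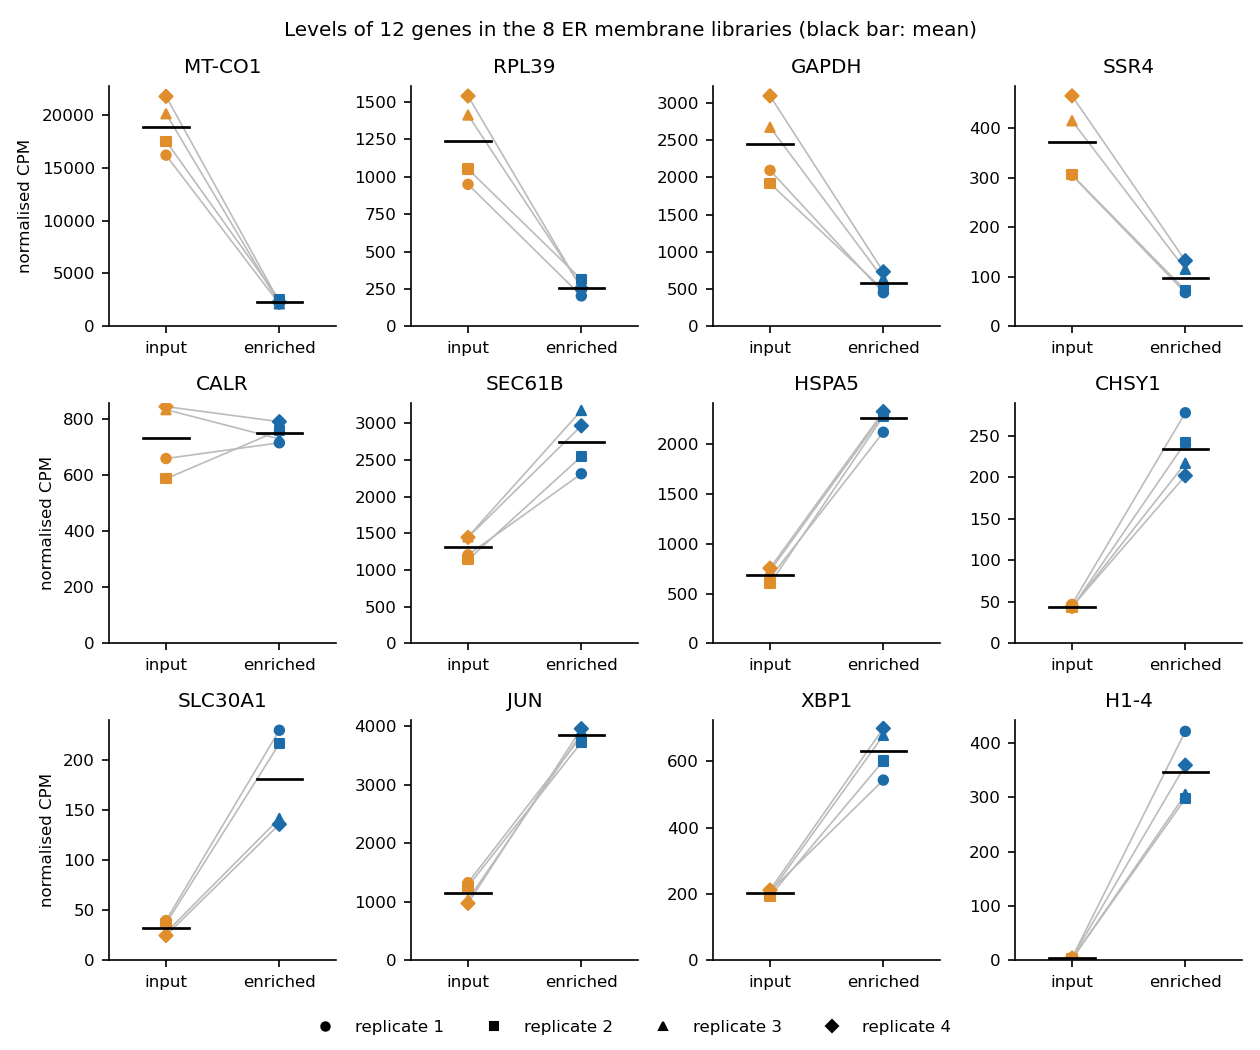
Normalised CPM (vertical axes, each from 0) of 12 genes in the 4 input (orange) and 4 enriched (blue) ERM libraries. Grey lines join the libraries of 1 replicate number and black bars are group means. MT-CO1, RPL39, GAPDH and SSR4 fell in all 4 pairs, the other genes rose in all 4 except CALR, whose pairs went both ways.

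The machinery of the ER membrane itself did not move as 1 group. Of 30 genes of the translocon and the membrane insertases 6 rose and 15 fell, with a median of -0.36 (-0.01 with total counts). The 3 SEC61 subunits went 3 ways, although SEC61B reads cannot be assigned to the endogenous gene or to a construct. SEC61B rose from 1207, 1141, 1453 and 1446 normalised CPM to 2313, 2549, 3176 and 2967 (1.03 ± 0.07, edgeR adjusted p = 1.77e-08). Unlabelled capture raised SEC61B to a similar extent, by 0.98 in the MITO and 0.83 in the LMNB1 libraries, and its part in the ERM value was not tested. SEC61G, the small tail-anchored subunit, fell from 100 to 180 to 27.4 to 39.4 (-2.01 ± 0.12). SEC61A1, the pore subunit, had overlapping groups at 338 to 411 in inputs and 395 to 456 in enriched libraries (0.16 ± 0.07, edgeR adjusted p = 0.0587). SEC62 (0.95) and TRAM2 (1.14) were higher, TMEM147 (-1.52) was lower, and SRPRA, the receptor subunit that binds the signal recognition particle, was at 0.17 ± 0.08 (edgeR adjusted p = 0.0838). NOMO1 (-1.46) has near-identical copies, so its value is uncertain.

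Around the channel, oligosaccharyl transferase and TRAP (translocon-associated protein) genes were lower in 15 of 16 cases, with a median of -0.97. The largest drops were in small subunits: TMEM258 (-2.10), OST4 (-2.03) and SSR4 (-2.003). SSR4 went from 305, 306, 415 and 465 normalised CPM in inputs to 68.0, 72.7, 115 and 133, without overlap. The catalytic subunit STT3A (-0.73 ± 0.07) and RPN1 (-0.75 ± 0.08) fell less, and SSR1, the TRAP alpha subunit, was the 1 member higher (0.56 ± 0.08, edgeR adjusted p = 2.65e-05).

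ER folding enzymes went both ways, with 8 of 35 higher, 19 lower and a median of -0.43. HSPA5 (chromosome 9, 125234853 to 125241343 in RefSeq GRCh38.p14) encodes BiP, the Hsp70 of the ER lumen. It stood at 659, 599, 728 and 756 normalised CPM in inputs and at 2122, 2282, 2306 and 2329 in enriched libraries, a change of 1.69 ± 0.08 (edgeR adjusted p = 4.83e-10), and every enriched library exceeded every input. Its J-domain partners DNAJC3 (1.54 ± 0.09) and DNAJB9 (1.51 ± 0.11) rose alongside. Glucosidase II, which trims glucose from new glycans, fell in both subunits, GANAB (-1.60 ± 0.08) and PRKCSH (-1.42 ± 0.09), and the collagen chaperone FKBP10 fell by 1.45 on the log2 scale. CALR, the lectin chaperone calreticulin, was at 588 to 845 in inputs and 716 to 791 in enriched libraries (0.01 ± 0.09, edgeR adjusted p = 0.915), with a fall of -0.24 in the fit of the deeper pairs 3 and 4 alone, and PDIA4 was at 0.06 ± 0.08.

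Several of these chaperone genes carry the ER stress response element in their promoters, the site through which ATF6 and XBP1 raise them, and their sites are shown because members with the same element took different directions here. The element was searched as CCAAT, 9 bases of any kind and CCACG, on both strands of the window from 250 bases before to 50 after each gene's start (RefSeq, GRCh38.p14), where 1 start per gene is used. It was in 22 of 27305 promoters (0.0806%) and in 6 of the 32 folding genes matched. Each line gives the strand that reads as the element, 5′ to 3′, with its fixed letters in capitals.
HSPA5: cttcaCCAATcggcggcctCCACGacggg
CALR: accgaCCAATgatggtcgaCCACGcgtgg
HSP90B1: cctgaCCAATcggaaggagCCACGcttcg
HSP90B1: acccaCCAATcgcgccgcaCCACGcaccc
CANX: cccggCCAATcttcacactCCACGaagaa
CRELD2: atggcCCAATccgagttcgCCACGagagg
ERO1B: ggcggCCAATgaggcgggaCCACGcgggc
The HSPA5 site lies at chr9:125241386-125241414 on the minus strand, the strand of the gene. The CALR site is at chr19:12938379-12938407, minus strand, and the CANX site at chr5:179698773-179698801, plus strand. The start used for CANX lies inside the annotated span of the gene, which begins at 179678656. HSP90B1, the ER Hsp90, holds a pair of sites, at chr12:103930211-103930239 on the plus and chr12:103930316-103930344 on the minus strand. CRELD2 has its site at chr22:49918549-49918577, minus strand, and ERO1B at chr1:236282178-236282206, plus strand. Against input, HSPA5 rose, CALR (0.01) and ERO1B (-0.11 ± 0.14) did not pass the test, and HSP90B1 (-0.51 ± 0.07), CANX (-0.64 ± 0.09) and CRELD2 (-0.84 ± 0.11) fell. The median of the 6 genes was -0.31, beside -0.43 for the 25 tested folding genes matched without these letters in that window. These values compare captured RNA with its input and do not measure transcription. A link between the element and capture was not tested. A match of letters is a description and not evidence of a working site.

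Quality control and its sensors stood higher than the folding enzymes. The order was the same at NES, with medians of 0.20 for degradation, 0.14 for sensors and -0.84 for folding enzymes. ER-associated degradation, which sends misfolded proteins back to the cytosol, had 12 of 22 genes higher and 6 lower, with a median of 0.75. RNF139, a membrane ubiquitin ligase, went from 38.6, 49.3, 40.8 and 43.6 normalised CPM to 186, 201, 212 and 203 (2.19 ± 0.09, edgeR adjusted p = 2.87e-10). FAF2 (1.38), ERLIN1 (1.15), the retrotranslocation components SEL1L (1.12 ± 0.12) and DERL1 (1.03 ± 0.09), the mannosidase-like EDEM1 (0.91 ± 0.11) and HERPUD1 (1.02 ± 0.09) were higher too. SYVN1, the ligase that works with SEL1L, was at -0.15 ± 0.11 with overlapping groups. Among 13 sensor and sterol-sensing genes 7 rose and 4 fell, with a median of 0.65. All 3 unfolded protein sensors rose: EIF2AK3, which encodes PERK (1.49 ± 0.15), ERN1, which encodes IRE1 (1.11 ± 0.16), and ATF6 (0.85 ± 0.10). INSIG1, which retains the sterol sensor SCAP in the ER, rose from 181 to 246 to 570 to 897 (1.75 ± 0.07), and INSIG2 by 1.33.

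Enzymes that build and finish glycans differed by compartment. In glycan and GPI anchor synthesis, an ER pathway, 23 of 39 genes fell and 8 rose, with a median of -0.55. ALG8 (-1.78), DPAGT1 (-1.63), the first enzyme of the lipid-linked oligosaccharide, and DPM3 (-1.49) led the drops, while ALG2 (1.79 ± 0.12) and DOLK, the dolichol kinase (1.67 ± 0.10), rose. In the Golgi, 33 of 51 glycosylation enzymes rose and 7 fell, with a median of 0.86. At NES the median of the ER list was -0.89 and that of the Golgi list 0.28. CHSY1, a chondroitin synthase, went from 47.0, 42.9, 43.5 and 44.1 normalised CPM to 278, 242, 217 and 202 (2.35 ± 0.09, edgeR adjusted p = 2.19e-10). B3GALT6 (2.31 ± 0.26) and HS6ST1 (1.91 ± 0.09), both of glycosaminoglycan synthesis, were similar. B3GNT2, which extends poly-lactosamine chains, was among the 10 highest genes of good level, from 11.96 to 13.98 in inputs to 75.0 to 101 in enriched libraries (2.67 ± 0.11). Cargo receptors had 8 of 23 higher and 8 lower, near the shares of all genes tested (35.6% higher, 32.0% lower). Their median was 0.07, as for all genes, and TMED7 (1.47) and LMAN2L (1.17) rose most. The cytosolic coats that form vesicles fell in 22 of 29 cases and rose in 5, with a median of -0.88, led by COPG2 (-2.07) and COPE (-1.76).

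Client mRNAs of the channel split by the protein they encode. Secreted and matrix proteins fell in 43 of 57 cases and rose in 11, with a median of -1.08. TIMP1, a metalloproteinase inhibitor, went from 76.8, 61.9, 67.0 and 73.3 normalised CPM to 13.3, 13.6, 13.6 and 14.4 (-2.37 ± 0.11, edgeR adjusted p = 4.83e-10), and FN1, fibronectin, changed by -1.69 ± 0.11. Risers included the matrix signalling protein CCN1 (1.597 ± 0.134), the Wnt ligand WNT5A (1.47 ± 0.13) and STC2 (1.44 ± 0.07). Lysosomal proteins fell in 32 of 46 cases and rose in 5, with a median of -0.64, led by TPP1 (-1.88), NPC2 (-1.77) and MAN2B1 (-1.77).

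Receptors and membrane transporters had more risers than fallers, as did all genes tested (35.6% higher, 32.0% lower, median 0.07). The counts in this paragraph are to be read beside those shares. Of 90 receptor genes 40 rose and 33 fell, with a median of 0.16. FZD8, a Wnt receptor, went from 21.6, 18.8, 12.3 and 11.8 normalised CPM to 110, 86.2, 86.5 and 92.9 (2.56 ± 0.13, edgeR adjusted p = 1.51e-09). Its relatives FZD1 (2.58 ± 0.13) and FZD4 (2.32 ± 0.15) and the TGF-beta receptor TGFBR2 (2.51 ± 0.23) rose as far. DAG1, dystroglycan, rose by 1.71 ± 0.08. Of 79 transporters 37 rose and 29 fell, with a median of 0.24. SLC30A1, a zinc exporter, went from 39.7, 36.9, 27.8 and 24.8 to 230, 216, 142 and 136 (2.43 ± 0.09, edgeR adjusted p = 1.67e-10), and both groups were higher in replicates 1 and 2. ATP1B1, the beta subunit of the sodium pump, rose by 1.79 ± 0.12. Lipid enzymes of the ER were balanced, with 29 of 66 higher and 28 lower. SGMS2 (1.97) and SGMS1 (1.89), the sphingomyelin synthases, and UGCG (1.67) rose most. The soluble enzymes of lipid and sterol synthesis fell in 9 of 13 cases and rose in 2, with FASN, fatty acid synthase, at -1.54. Nuclear envelope membrane proteins, which are inserted at the ER and diffuse along it, rose in 13 of 21 cases and fell in 5 (TOR1AIP1 1.604, LEMD3 1.58). Tail-anchored proteins, which enter the membrane after translation, rose in 15 of 39 cases and fell in 13. Peroxisomal proteins fell in 13 of 29 cases and rose in 8, led by HSD17B4 (-1.92).

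Other genes among the 10 highest of good level came from no list or from several. They were DIPK2A (2.90 ± 0.12), KLHL11 (2.63 ± 0.14), POMK, a kinase of dystroglycan's sugar chain (2.59 ± 0.33), and GAS1, a GPI-anchored hedgehog co-receptor (2.59 ± 0.32). MIR3648-1 had 9.1, 4.2, 0.0 and 0.0 normalised CPM in inputs and 289, 123, 26.2 and 42.8 in enriched libraries. This gene has near-identical copies in the ribosomal DNA spacer, its count is of the gene and not of the mature miRNA, and its value is uncertain. The list counts that follow are to be read beside the shares of all genes tested (35.6% higher, 32.0% lower). The list named nuclear long noncoding RNAs had 5 of 13 members higher and 3 lower, although its member NORAD (1.32 ± 0.07) is mainly cytoplasmic. NEAT1 was at -0.89 ± 0.09 and MALAT1 at 0.51 ± 0.37 (edgeR adjusted p = 0.305). Hosts of small nucleolar RNAs fell in 11 of 21 cases and rose in 2 (SNHG5 -1.38). SON (1.10) and SRSF4 (1.00) led the 16 of 37 speckle and detained-intron genes that rose, while 14 fell.

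The next question was which of these changes were larger at the ER membrane than in the cytosol. NES enrichment was set against ERM enrichment in 1 edgeR model of 12 libraries, with each construct compared with its own inputs and no library shared. The result depends heavily on the fit. Of 15619 genes tested, 952 differed (6.1%), 393 higher at ERM (2.52%) and 559 lower (3.58%). With total counts 1106 were higher and 85 lower, and with RLE (relative log expression) scaling 323 and 921. Without the replicate block 1 gene passed the threshold, SEC61B, and without NES replicate 1 or 2 the calls were 3 and 58. Without ERM replicate 3 they were 330. The median difference of all genes was -0.04, and 0.20 with total counts.

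Within that fit, calls among genes of the secretory pathway were nearly all toward ERM. Over 13 lists (from the translocon to ER lipid enzymes, without the vesicle coats), 567 genes were tested, 138 were higher at ERM and 1, SEC61G, lower, and 501 of the differences were positive, with a median of 0.40. Of all 15619 genes tested, 7272 differences were positive. These same genes had a median of -0.15 against their own input at ERM and -0.54 at NES. The median difference was positive for each of the 13 lists under every scaling, filter, tool and left-out replicate tried, from 0.11 for the translocon to 0.77 for receptors. The calls of single genes were not stable in this way, and without the replicate block only that of SEC61B was left. Their genes made up 5.28% ± 0.08 of all counts in ERM inputs and 6.48% ± 0.11 in enriched libraries (SD, n = 4), higher in 4 of 4 pairs (exact permutation within pairs, two-sided p = 0.13, the smallest possible). At NES the share was 5.16% ± 0.10 in inputs and 4.03% ± 0.04 in enriched libraries (SD, n = 2). With mitochondrial-DNA counts, which fell in the enriched libraries, left out of the total, the ERM rise was 0.88 percentage points in place of 1.19. Without SEC61B the ERM shares were 5.17% ± 0.08 and 6.19% ± 0.14. HSPA5 alone took 0.0615% of input and 0.252% of enriched counts.

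**Figure D3:**
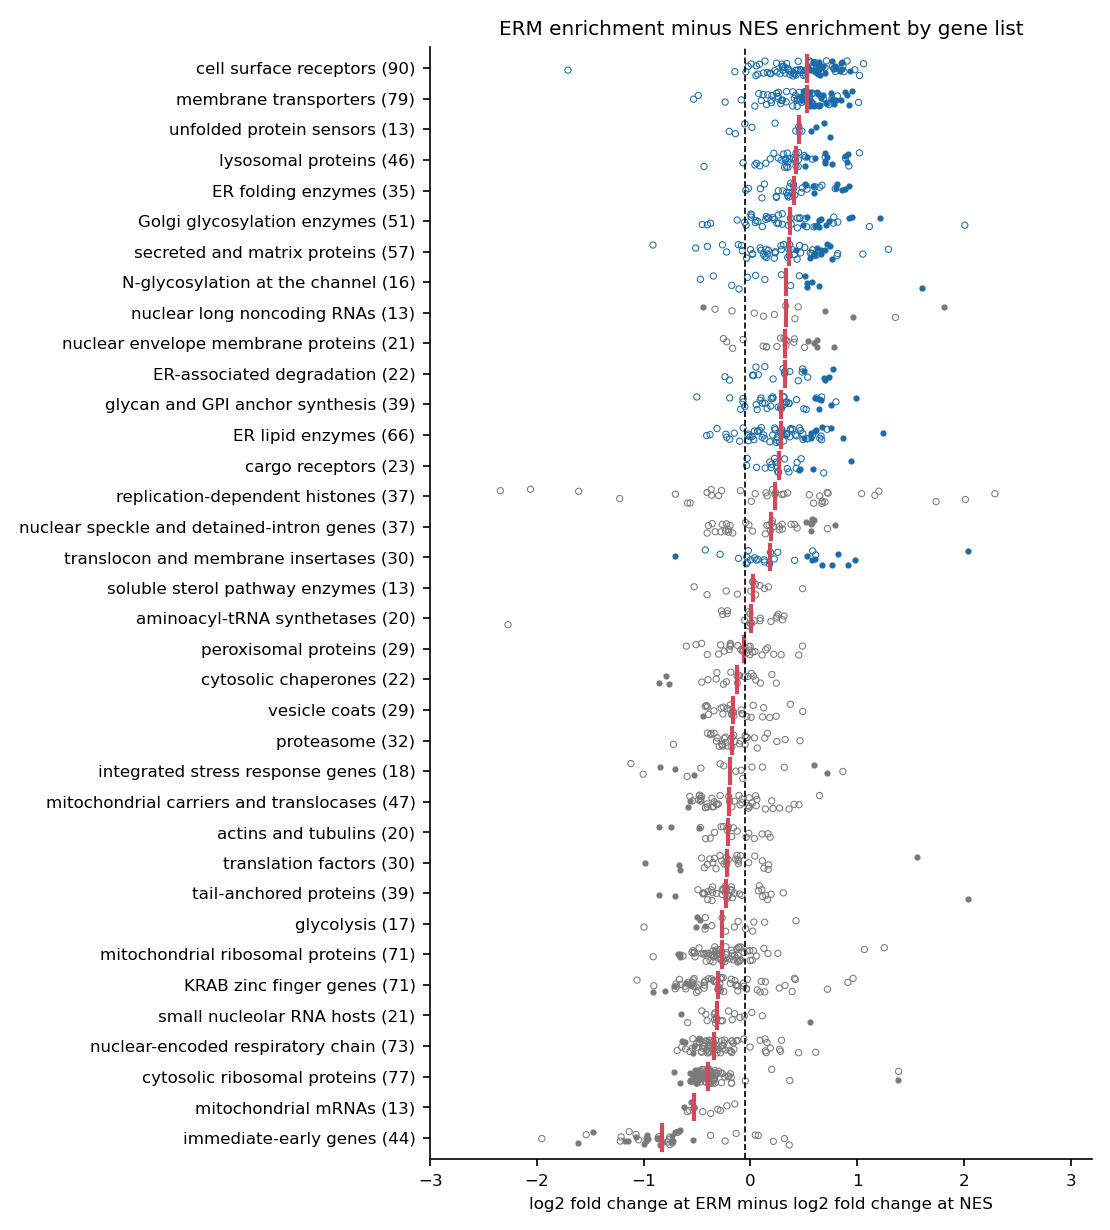
Difference between the log2 fold changes at ERM and at NES (horizontal axis) for the tested members of 36 gene lists. Filled points passed the edgeR test of the difference, open points did not, red bars are list medians and the dashed line is the median of all genes in the plotted table. The lists of the secretory pathway (blue) have medians from 0.18 to 0.53, and immediate-early genes lie lowest at -0.83.

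At the channel, 9 of 30 translocon and insertase genes were higher at ERM, with a median difference of 0.18. SEC61A1 stood at 229 and 207 normalised CPM in the enriched NES libraries and 378 and 299 in NES inputs, a drop where ERM had none, and the difference was 0.82 ± 0.12 (edgeR adjusted p = 0.00209). For SRPRA it was 0.98 ± 0.15, for NCLN 0.76 and for CCDC47, a chaperone of multipass proteins, 0.67. SEC61B had the largest difference of any gene of good level at 2.04 ± 0.13 (edgeR adjusted p = 4.89e-08), going from 123 and 139 in NES inputs to 63.8 and 69.6. Its ERM reads may come from a construct, so this value cannot be read as that of the endogenous gene. SEC61G was lower at ERM (-0.71 ± 0.20, edgeR adjusted p = 0.0432). Oligosaccharyl transferase and TRAP genes were higher in 6 of 16 cases and lower in 0 in this test, with a median of 0.33.

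Luminal folding enzymes were higher at ERM in 9 of 35 cases, with 33 of 35 differences positive and a median of 0.41. HSPA5 rose at NES too, from 689 and 620 to 1242 and 1148, and the ERM rise exceeded that one by 0.86 ± 0.13 (edgeR adjusted p = 0.002). CALR fell at NES from 1002 and 750 to 540 and 438, against no call at ERM, a difference of 0.88 ± 0.15 (edgeR adjusted p = 0.00329), and PDIA4 behaved alike (0.92 ± 0.13). DNAJB9 (-0.02), DNAJC3 (0.24), XBP1 (0.01) and ERN1 (0.01), all of which rose at ERM against input, had no call in the difference, whereas ATF6 did (0.75, edgeR adjusted p = 0.0225). For XBP1, ERM inputs exceeded NES inputs by 1.03 on the log2 scale (edgeR adjusted p = 0.0123). EDEM3 (0.77) and SYVN1 (0.74) were among 5 of 22 degradation genes called higher.

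Receptors and membrane transporters had list medians above those of the ER machinery. Transporters were higher at ERM in 29 of 79 cases and receptors in 22 of 90, with medians of 0.53 each. ATP2A2, the ER calcium pump, was higher at ERM than at NES by 0.77 (edgeR adjusted p = 0.00271) and SLC3A2, a subunit of amino acid transporters, by 0.56. FAT1 (0.86), INSR (0.86) and DAG1 (0.63) stood for the receptors. FZD8 (0.16), SLC30A1 (0.20) and CHSY1 (0.05), the leaders against input, had no call in the difference. Secreted and matrix genes were higher in 12 of 57 cases (STC2 0.72), lysosomal genes in 11 of 46, Golgi enzymes in 12 of 51, ER lipid enzymes in 9 of 66 (SQLE, squalene epoxidase, 0.76) and nuclear envelope membrane proteins in 5 of 21. For STC2, ERM inputs exceeded NES inputs by 0.67 (edgeR adjusted p = 0.0376). Vesicle coats (median -0.16), peroxisomal proteins (-0.06), soluble sterol enzymes (0.02) and tail-anchored proteins (-0.23) had at most 2 calls in either direction each.

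By the rule for leading genes, the 6 highest at ERM were SEC61B, SLC5A3, a myo-inositol transporter (1.39 ± 0.23), NFE2L3, a transcription factor anchored in the ER (1.22), MAN1A1, a Golgi mannosidase (1.22), TMEM165, a Golgi ion transporter (1.03), and STEAP3, an iron reductase (1.01). MAN1A1 stood at 51.8 and 49.6 normalised CPM in enriched NES libraries and at 73.6 to 98.9 in enriched ERM libraries, with inputs of 38.0 and 48.6 and of 23.7 to 36.0. STEAP3 had no call against its own input at ERM (-0.21 ± 0.10, edgeR adjusted p = 0.0966) and fell at NES. The 6 lowest were OTUD1 (-1.22), SERTAD1 (-1.19), CITED2 (-1.11), HES1 (-1.07), RHOB (-1.06) and PNRC1 (-1.05), all of which rose against input at ERM but rose further at NES. SERTAD1 went from 13.7 to 20.8 to 45.3 to 53.8 at ERM and from 8.5 and 10.5 to 56.1 and 69.8 at NES.

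Immediate-early genes were lower at ERM in 22 of 44 cases and higher in 0, with a median difference of -0.83 (-0.96 to -0.59 over the alternatives). The calls were less stable, with 9 lower with total counts, 24 with RLE scaling and 0 without the replicate block. Their median rise was 1.09 at ERM and 1.90 at NES. JUN reached 11520 and 6632 normalised CPM in the enriched NES libraries, which differed widely from each other, against 3725 to 3959 at ERM. Its inputs also differed, at 1623 and 1066 at NES and 976 to 1328 at ERM. The difference in enrichment was -0.98 ± 0.15 (edgeR adjusted p = 0.00239). MYC was lower by 0.88 on the log2 scale, with inputs that differed by -0.05 between ERM and NES. For ATF3 (-0.84) the enriched levels were close, at 802 to 944 at ERM and 987 and 1071 at NES, and ERM inputs exceeded NES inputs by 0.63 (edgeR adjusted p = 0.0279). EGR1 had the largest difference among the called members, -1.61 ± 0.22, at 19.1 to 27.8 in enriched and 21.2 to 38.2 in input ERM libraries and 23.4 and 31.5 against 9.2 and 14.7 at NES. Its ERM inputs exceeded the NES inputs by 1.35 (edgeR adjusted p = 0.0326). Cytosolic ribosomal proteins were lower at ERM in 16 of 77 cases and higher in 1, RPL36A, with a median of -0.40 (RPL15 -0.72). With total counts 1 was lower and 1 higher, and with RLE scaling 29 were lower and 1 higher. Inputs of RPL36A differed by -0.75 between ERM and NES (edgeR adjusted p = 0.02385). The 13 mitochondrial mRNAs all had negative differences, and 4 passed the test (MT-CO1 -0.53, MT-CO3 -0.62, MT-ND1 -0.53, MT-ND2 -0.56). Glycolysis was lower in 4 of 17 cases. EEF1A1, an elongation factor gene, was lower by 0.66 on the log2 scale (edgeR adjusted p = 0.0172). NES inputs held 5415679 and 5647513 counts, far fewer than ERM inputs 3 and 4, and the part of depth in the differences was not tested.

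**Figure D4:**
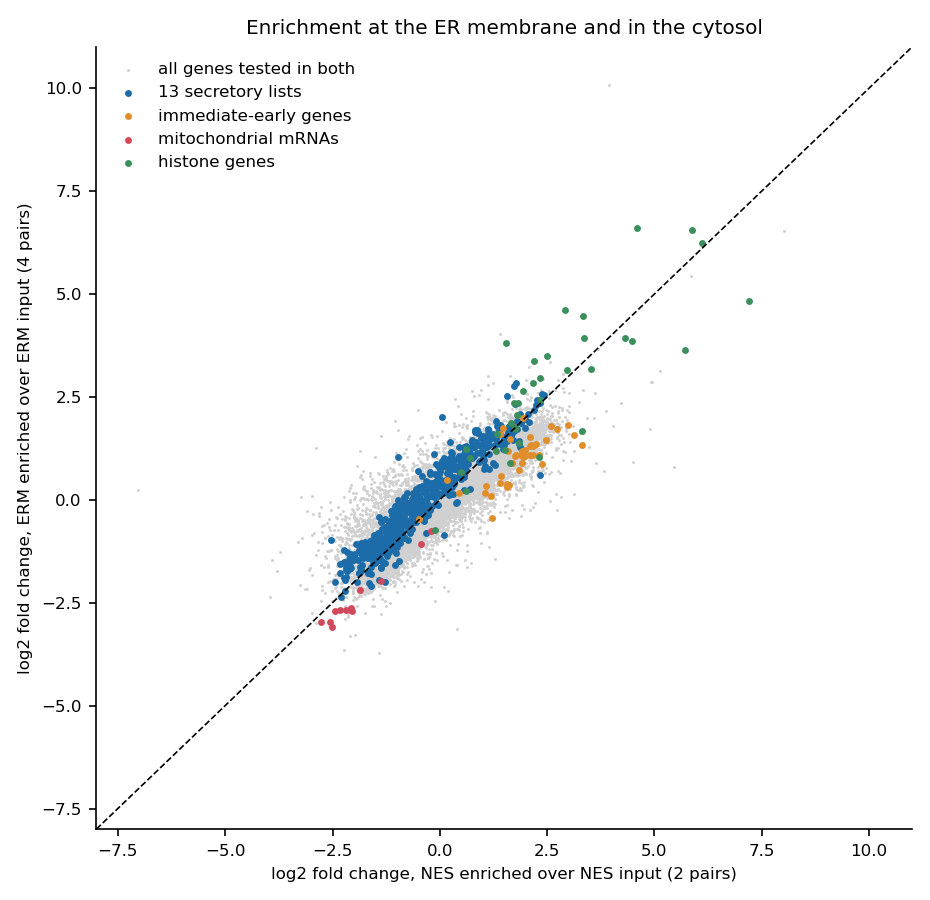
Log2 fold change of enriched over input libraries at NES (horizontal axis) and at ERM (vertical axis), 1 point per gene tested in both, with equal values on the dashed line. Points of the 13 secretory lists (blue) lie mostly above the line, with 501 of 567 fitted differences positive, and immediate-early genes (orange) mostly below it, with 5 of 44 positive.

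The depth of the ERM libraries split them into replicates 1 and 2 and replicates 3 and 4, so the comparison with input was also fitted in each of these pairs of replicates, an alternative added after the depths were seen. Of the 5257 genes called higher, 5186 were fitted in both and 5180 had the same sign in both, and of the 4734 called lower, 4642 of 4643 did. The separate fits called 4738 and 5054 genes higher and 4681 and 4752 lower. List medians in pairs 1 and 2 and in pairs 3 and 4 were -2.49 and -2.86 for mitochondrial mRNAs, 2.36 and 2.42 for histone genes and 0.90 and 0.72 for Golgi enzymes. Others lay further apart for their size, at -0.21 and -0.41 for the translocon and -0.55 and -0.18 for small nucleolar RNA hosts. The list named nuclear long noncoding RNAs had 0.57 and 0.04. The medians of cargo receptors (0.14 and -0.08) and of speckle and detained-intron genes (-0.09 and 0.06) differed in sign.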

How the data were processed

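RNA was sequenced from 8 ERM libraries and, for 1 comparison, 4 NES libraries. The authors deposited a table of raw read counts for 57992 gene IDs in 40 libraries. Per the submitters' processing notes, HISAT2 2.1.0, HTSeq 0.7.2 and DESeq2 were used with GRCh38; the sources used here state neither annotation nor strand setting, so antisense and overlapping genes are uncertain. Symbols were found for 56948 IDs. Counts were tested with edgeR 4.0.16 (R 4.3.3; quasi-likelihood, TMM, its filter on low counts, Benjamini-Hochberg, threshold 0.05). The replicate number entered as a block, since the series design gives input and enriched RNA as the same biological replicate; deviations from group means correlated at 0.400, 0.293, 0.366 and 0.368 within pairs, but enriched 1 correlated more with input 2 (0.476) and enriched 3 with input 4 (0.431), so the values also follow the split by depth and the block rests on the design. Libraries held 5342584 to 14496768 counts, which limits low genes; intervals here are standard errors. Data were also simulated, with few changed genes and the same spread for every gene. On these, the ERM comparison recovered 89.5% of changes of 1 on the log2 scale and the ERM against NES difference 55.6%. In the real ERM comparison 67.6% of genes were called, so these rates need not hold there.

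Named genes were SEC61B, ATF3, the mitochondrial mRNAs, up to 10 highest and 10 lowest called genes (mean log2 CPM of at least 5, groups apart), up to 3 called members per list in its main direction (mean of at least 3), and 6 highest and 6 lowest against NES; others were chosen after their values were seen. Members and lists were chosen with earlier results of these data known. X-inactivation transcripts and some other genes that the rule picked are not reported here. Alternatives were DESeq2 1.42.0, RLE or total-count scaling, other filters, no block and each replicate left out. Promoters and coordinates are from RefSeq (GRCh38.p14), matched by symbol.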

Additional observations from a re-analysis of the deposited data

Results flagged for a closer look

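In 9 of the 197 named genes 1 of the 4 pairs stood far from the other pairs, and chance gives about 1 in 20. The outlying log2 ratios were 2.85 for B3GNT2, -0.069 for NOMO1, -0.96 for SCP2, -0.92 for CCT8, 1.47 for SQLE and -0.32 for HSP90B1, all in pair 2, -2.06 for DPM3 and -2.40 for ATP5MC1 in pair 1, and 1.12 for STX6 in pair 4.

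The enrichment of 952 genes differed between ERM and NES by a test of the difference in edgeR. Of these, 12 picked by the rule for leading genes are given here. Without the replicate block only SEC61B kept its call. Enrichment was higher at ERM for SEC61B (2.04), SLC5A3 (1.39), NFE2L3 (1.22), MAN1A1 (1.22), TMEM165 (1.03) and STEAP3 (1.01). It was lower for OTUD1 (-1.22), SERTAD1 (-1.19), CITED2 (-1.11), HES1 (-1.07), RHOB (-1.06) and PNRC1 (-1.05).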

How the results depend on the processing

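Counts of genes called between enriched and input ERM libraries stayed within 1.5 times under every alternative run, with 4707 to 5064 higher and 4393 to 4602 lower when 1 replicate was left out, and 4973 and 4501 without the replicate block. The ERM against NES counts did not. Without the replicate block they were 1 higher and 0 lower, and with total counts 1106 and 85. The lower count was 1062 with DESeq2, 921 with RLE scaling and 1165 without the filter. Leaving out 1 library pair gave 3 to 440 higher and 0 to 675 lower, the lowest without NES replicate 1 and, for ERM, 172 and 158 without replicate 3. The cause was not tested. Where 1 NES pair is left out, the lone pair is assumed to vary like the ERM pairs.

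Without pairing, the share differences of -5.69 (mitochondrial DNA) and 1.19 (secretory lists) percentage points had an exact permutation p of 0.0286 over 8 libraries. CALR changed sign in pairs 3 and 4 alone (-0.24), as did PDIA4 (-0.11) and MALAT1 (-0.07), and ERO1B did in pairs 1 and 2 (0.11); none of the 4 had a call over all pairs. With total counts the medians of peroxisomal proteins (0.097), small nucleolar RNA hosts (0.032), HEK293 line genes (0.071) and speckle and detained-intron genes (0.309) turned positive. The last also did without replicate 1 (0.088). Medians near 0 turned negative for cargo receptors (-0.004 without replicate 2, -0.079 in pairs 3 and 4) and ER lipid enzymes (-0.013 with DESeq2, -0.014 with RLE scaling). The planned classes by hydrophobic stretch were not run, since no protein sequences were used here. Depth limits the calls of low genes in replicates 1 and 2.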
